A study of Mus musculus with 5 samples.

Results

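The genes described here are the machinery of DNA replication and mitosis, with the G1 regulators and tubulin genes that accompany them, measured in invariant natural killer T (iNKT) cells of the mouse liver. They are a list of 35 symbols, each of which matched 1 of the 55364 gene rows: 11 replication genes, 15 mitosis genes, 6 genes of G1 control, and 3 genes of tubulins and stathmin. iNKT cells are lymphocytes that recognise lipids held by the CD1d molecule, and here they were sorted from liver as cells that bound a PBS57-loaded CD1d tetramer and an antibody to TCRb. All animals were male wild-type C57BL/6 mice taken at 38 to 42 weeks of age. The 2 healthy libraries came from mice given PBS, and the 3 libraries labelled HCC came from mice with hepatocellular carcinoma induced by 1 intraperitoneal dose of 25 mg/kg diethylnitrosamine (DEN) at 15 days of age. The question was whether iNKT cells of the tumour-bearing liver differ from those of the healthy liver.

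A cell that leaves rest passes through G1, copies its DNA in S phase and divides in mitosis. Cyclins of the D type with Cdk4 or Cdk6 drive G1, E2F factors then turn on the replication genes, and the mitosis genes follow later under control elements of their own. T cells in adult tissue are mostly at rest and divide after they meet antigen, so the RNA of these genes is used as a readout of the cycling fraction. In RNA from a whole sorted population, fewer cycling cells and less RNA per cycling cell cannot be told apart.

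The libraries differ in depth in a way that matters for these genes. The deposited values are whole numbers, yet 38 of the whole numbers from 1 to 60 never occur in healthy 1 and 17 never occur in HCC 3, while 0 are missing in the other libraries, where the number of genes goes up and down at regular values instead. Read counts multiplied by 1 factor per library and rounded give such patterns, and the spacing put the estimated depth of the healthy libraries at 837799 and 2400347 reads and that of the HCC libraries at 2601066, 3905573 and 1352462 reads. Levels are given below on the CPM scale, each value relative to the table total of its library, in the order healthy 1, healthy 2, HCC 1, HCC 2, HCC 3. A value of 0 allows up to 3.58, 1.25, 1.15, 1.21 and 2.22 CPM in these libraries, counting error only. Over genes, healthy 1 correlated with the other libraries at r = 0.767 to 0.820 (log2 scale) and those with each other at 0.848 to 0.903, so healthy 1 was both the shallowest library and the one that stood apart. Differences with healthy 1 left out, that is, against healthy 2 alone, are given below beside those fitted on all libraries.

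**Figure D1:**
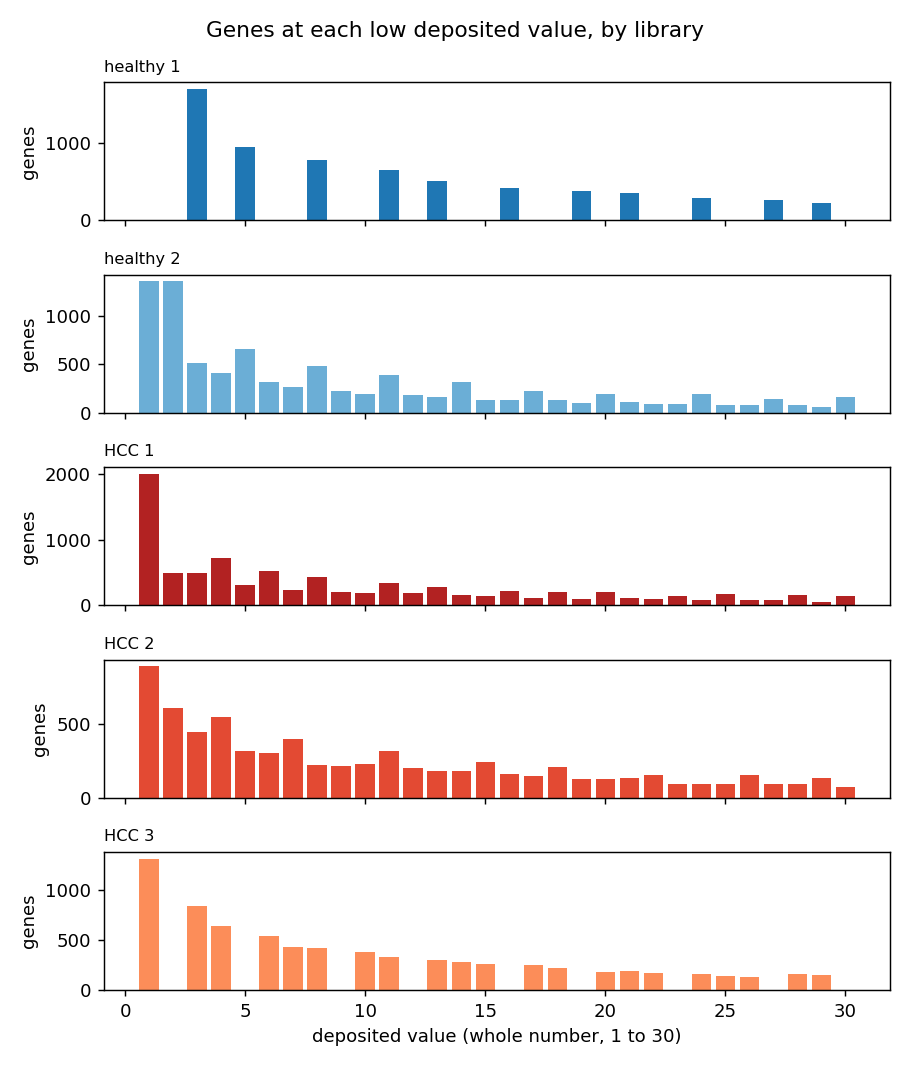
Number of genes (vertical axis) at each whole deposited value (horizontal axis) in the 5 libraries. Gaps recur in healthy 1 and HCC 3, where 38 and 17 of the whole numbers from 1 to 60 hold no gene.

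The sorted cells carried T cell transcripts in every library. The 12 listed T cell and iNKT markers summed to 4819 and 6584 CPM in healthy and 5763 to 6359 CPM in the HCC libraries. Among them Zbtb16, the transcription factor that defines NKT cells, was at 0 to 1.65 CPM and so near the limit of detection. Klrb1c, also 1 of the 12, differed within both groups, at 382.1, 5.489, 464.7, 20.95 and 333.3 CPM. Markers of some other cells did differ by group. The 10 erythroid markers found in the tables summed to 2798 and 2982 CPM in healthy and 7406 to 17090 CPM in HCC libraries, with the erythroid genes Klf1, Epor and Slc4a1 at 0 in every library. The 15 hepatocyte markers found summed to 71.5 and 75.8 CPM in healthy and 115.9 to 835.5 CPM in HCC libraries, with Alb, the gene of albumin, at 3.60, 18.1, 7.07, 58.8 and 199 CPM. The 8 B cell markers summed to 45.4 and 86.7 CPM in healthy and 107 to 158 CPM in HCC libraries, with the B cell factor Pax5 at 0.544 CPM or less. The 5 markers of liver endothelium summed to 3.19 CPM or less in every library. The 6 NK cell markers, Klrb1c among them, summed to 404.6, 14.27, 580.6, 26.19 and 374.7 CPM. The 10 myeloid markers summed to 26.52, 8.782, 28.84, 44.81 and 9.023 CPM. The 5 plasma cell markers summed to 40.46, 66.42, 57.14, 82.63 and 69.53 CPM. These NK, myeloid and plasma cell sums overlapped between groups. What all these markers contributed to the results below was not tested.

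No member of the list passed the test of HCC against healthy libraries. Of 8602 genes tested with limma, 0 (0%) were called at an adjusted p under 0.05, and the smallest adjusted p was 0.6057. At an unadjusted p under 0.05 there were 371 genes (4.31%), 351 of them higher and 20 lower in HCC. The test could be made for 22 of the 35 members, of which 0 passed at either threshold, with 15 fitted higher and 7 lower and a median log2 difference of 0.27 beside 0.19 over all genes tested. That shift of all genes was 0.04 when libraries were scaled by their median ratio in place of their totals. With healthy 1 left out it was -0.04, so differences without healthy 1 given below are to be read beside that value. The 13 members without a test, 11 of them mitosis genes, were too low for the minimum of 5 CPM in 2 libraries. Without healthy 2, so that healthy 1 was the lone control and was assumed to vary like the HCC libraries, limma called 565 genes higher and 80 lower, with 1 member, Mcm3, among them; without healthy 1 it called 0.

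Replication genes as a group were read in every library, and their summed level was lowest in healthy 1. The 11 genes summed to 205.5, 421.5, 421.2, 348.0 and 376.9 CPM, which is 313.5 ± 153 (SD, n = 2) in healthy and 382.0 ± 36.9 (SD, n = 3) in HCC libraries. The HCC libraries lay between both healthy libraries, so the groups overlapped. The log2 ratio of the means was 0.29, and with healthy 1 left out it was -0.14, the other direction. The 95% exact Poisson intervals were 176 to 238 CPM in healthy 1 and 396 to 448 CPM in healthy 2, so the healthy libraries differed from each other by more than counting error. Healthy 1 held the lowest value for 8 of the 11 replication genes. The share of all genes lowest in healthy 1 was not computed, so this count has no background to be read against.

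Mcm2 to Mcm7 encode the ring-shaped helicase that opens the double helix at replication origins. Mcm6 (ENSMUSG00000026355, chr1:128331590-128359664, minus strand) measured 52.6, 96.1, 109.9, 71.0 and 86.5 CPM. The healthy value of 96.1 CPM lay inside the HCC range, and limma gave a log2 difference of 0.30 (SE 0.43, adjusted p 0.954), and -0.13 without healthy 1. Mcm3 (ENSMUSG00000041859, chr1:20802968-20820312, minus strand) measured 2.25, 49.4, 41.4, 41.3 and 25.0 CPM, so healthy 1 was far below all others and healthy 2 was the highest. Its log2 difference was 1.49 (SE 0.90, limma adjusted p 0.9401). With limma it was 3.47 (adjusted p 0.005027) against healthy 1 alone and -0.49 against healthy 2 alone. About 2 reads of Mcm3 were present in healthy 1 against 119 in healthy 2.

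The other helicase genes had the same low value in healthy 1 in most cases. Mcm2 measured 20.2, 44.5, 34.8, 43.1 and 47.2 CPM. Mcm4 measured 10.8, 47.8, 33.2, 22.7 and 29.7 CPM. For Mcm2 the value of healthy 2 sat among those of HCC, and for Mcm4 it sat above them. Mcm5 measured 29.7, 54.3, 40.8, 71.0 and 70.1 CPM, with HCC 2 and HCC 3 the highest. Mcm7 measured 8.54, 22.0, 32.1, 6.98 and 28.1 CPM, with its lowest value in HCC 2. Of the 31-base words in the last 300 transcript bases of Mcm7, 52.0% also occur in another gene, and Cops6 lies over its end on the opposite strand, so its level is uncertain. Of the end words of Mcm5 10.8% occur in other genes. limma gave log2 differences of 0.28 to 0.54 for Mcm2, Mcm4, Mcm5 and Mcm7, each with an interval that includes 0. Without healthy 1 the difference was -0.10 for Mcm2, -0.74 for Mcm4, 0.11 for Mcm5 and -0.22 for Mcm7, so it turned for all of these but Mcm5.

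Pcna, the sliding clamp that holds the polymerase on DNA, measured 59.8, 85.6, 107.7, 82.1 and 74.8 CPM. Healthy 2 lay inside the HCC range, and the log2 difference was 0.28 (95% interval -0.60 to 1.16), or 0.03 without healthy 1.

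**Figure D2:**
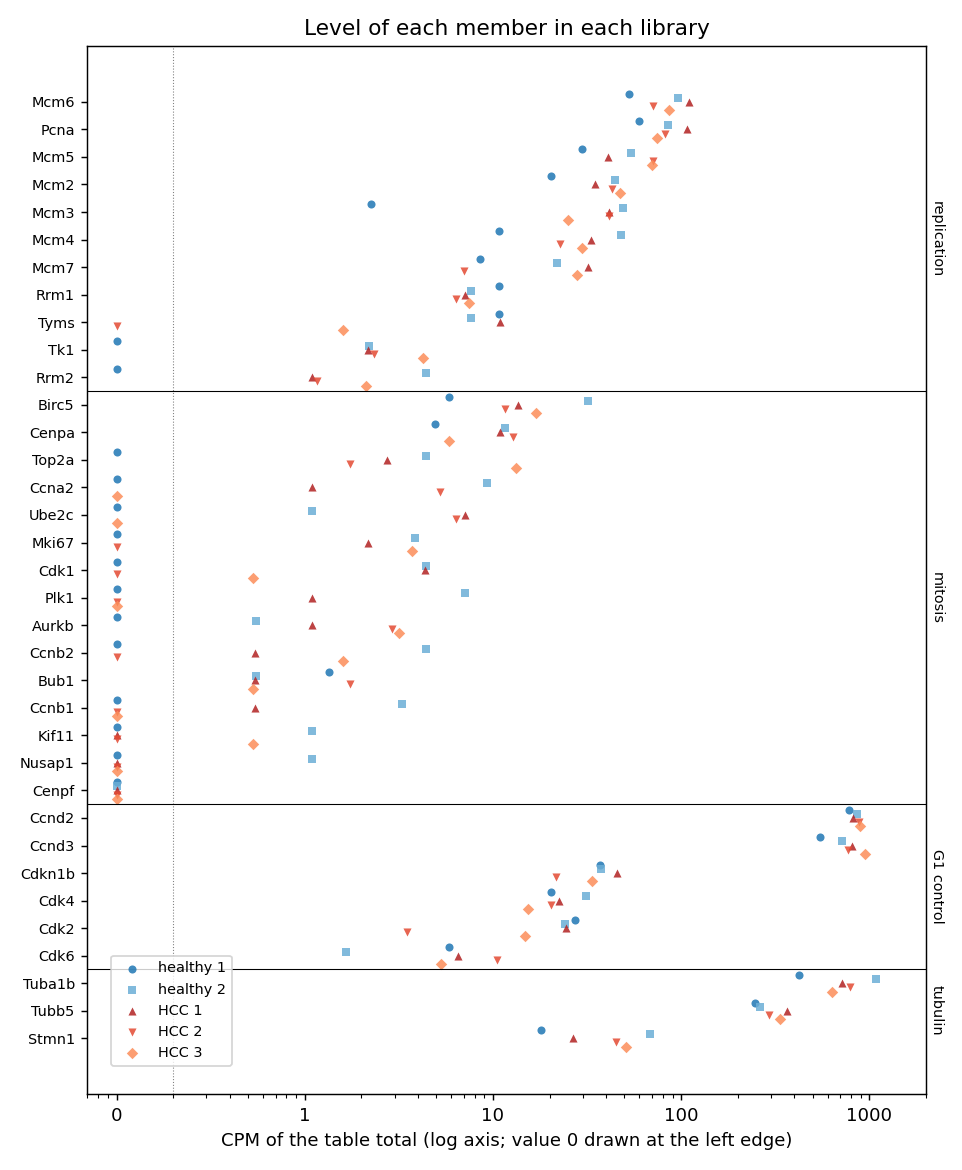
Level of each of the 35 members (rows, by role) in each library, in CPM of the table total on a log axis, with values of 0 at the left edge. Healthy 1 is the lowest point for 8 of the 11 replication genes, and it lies at 0 for 12 of the 15 mitosis genes. Shares of all genes with these patterns were not computed.

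The genes that supply nucleotides for DNA synthesis were low. Rrm1 (ENSMUSG00000030978, chr7:102441695-102469771, plus strand), the large subunit of ribonucleotide reductase, measured 10.8, 7.68, 7.07, 6.40 and 7.43 CPM. It was the 1 member with every HCC library below both healthy ones, a pattern found in 5.37% of tested genes, and the nearest HCC and healthy values were 7.43 and 7.68 CPM. With scaling by median ratios Rrm1 overlapped. Tyms, which makes thymidylate, measured 10.8, 7.68, 10.9, 0 and 1.59 CPM, so HCC 1 matched healthy 1 and the other HCC libraries were at or near 0. The log2 difference of Tyms was -1.69 (SE 1.16, limma adjusted p 0.9401), -0.87 without HCC 2 and -1.47 without healthy 1. Rrm2, the small reductase subunit, measured 0, 4.39, 1.09, 1.16 and 2.12 CPM. Tk1, the thymidine salvage kinase, was at 0 in healthy 1 and between 2.18 and 4.25 CPM in the other libraries, with HCC 3 the highest. Of the end words of Tyms 19.5% and of those of Rrm2 25.8% occur in other genes, so these levels are uncertain. Gm20708 lies over the end of Tk1 on the opposite strand. Rrm2 and Tk1 were too low for the test, and their 0 in healthy 1 allows up to 3.58 CPM.

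Mitosis genes were scarce in every library, and the libraries with the least and the most of them were both healthy. The 15 genes summed to 12.1, 84.5, 45.7, 42.5 and 46.2 CPM, or 48.3 ± 51.2 (SD, n = 2) in healthy and 44.8 ± 2.01 (SD, n = 3) in HCC libraries. The 3 HCC sums lay within 4 CPM of each other, and both healthy libraries lay outside them on opposite sides. The log2 ratio of means was -0.11, -0.92 without healthy 1 and 1.88 without healthy 2. The reads behind these sums were few: 10, 203, 119, 166 and 62, with exact Poisson intervals of 5.72 to 22.0, 73.3 to 97.0, 37.9 to 54.7, 36.3 to 49.5 and 35.1 to 58.8 CPM. These intervals do not overlap between healthy 1 and any other library, nor between healthy 2 and any other. Members above 0 numbered 3, 14, 12, 7 and 9 of 15. At the depth of healthy 1, 11.8, 8.9, 6.6 and 7.7 of them would be expected above 0 in the other libraries, against 3 in healthy 1. Healthy 1 was lowest and healthy 2 highest in other sums too. They stood at 470.7 and 699.3 CPM for other replication genes and 196.9 and 474.8 CPM for other mitosis genes. Other cell cycle control genes gave 503.5 and 1042 CPM, and other tubulin genes 724.7 and 1144 CPM. The T cell and iNKT markers had this order as well, but G1 control and the other marker lists did not.

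**Figure D3:**
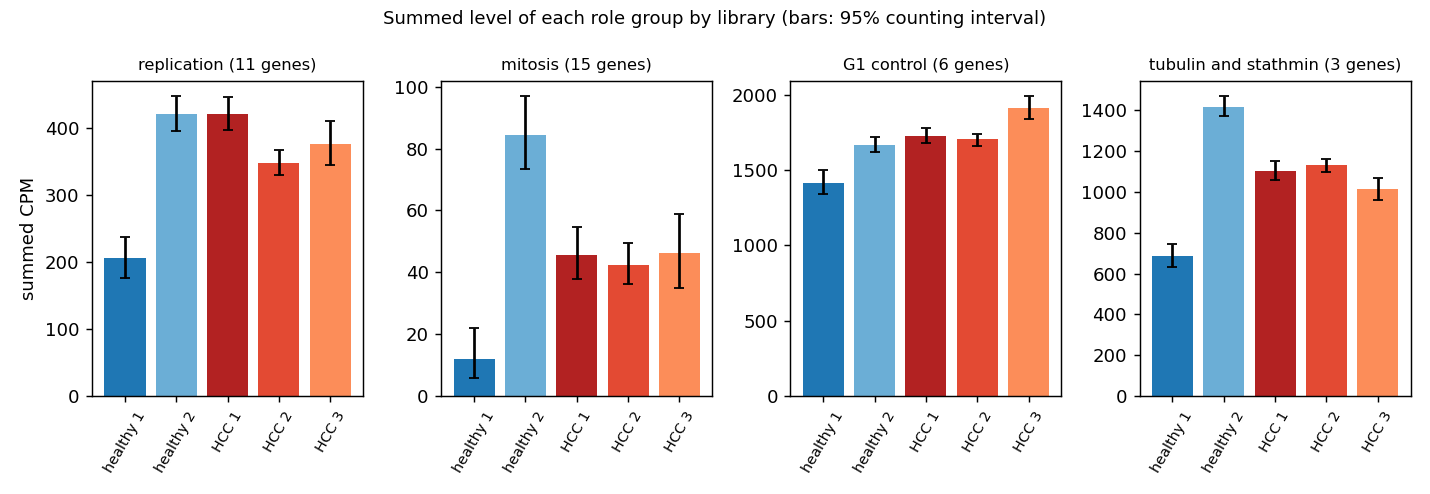
Summed level of each role group in each library (CPM of the table total), with 95% exact Poisson intervals for counting error as bars. For mitosis genes healthy 1 and healthy 2 lie at 12.1 and 84.5 CPM on either side of the HCC libraries at 42.5 to 46.2 CPM.

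Birc5 (ENSMUSG00000017716, chr11:117849251-117855743, plus strand), the survivin subunit of the chromosomal passenger complex, gave the most reads of the mitosis genes. It measured 5.84, 31.8, 13.6, 11.6 and 17.0 CPM, so its HCC values too lay between both healthy values. limma gave a log2 difference of -0.01 (95% interval -1.56 to 1.55), and -1.14 without healthy 1. Cenpa, the histone variant that marks centromeres, measured 4.95, 11.5, 10.9, 12.8 and 5.84 CPM, with groups that overlapped. Aurkb, the kinase of the same passenger complex, measured 0, 0.549, 1.09, 2.91 and 3.19 CPM. Every HCC library of Aurkb was above both healthy ones, but the reads were 0, 1, 3, 11 and 4, and the 0 of healthy 1 allows more than any of the HCC levels. 

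The cyclins and kinase that start mitosis were low in every library, and their values in healthy 2 rested on 8 to 11 reads. Ccnb1, a B-type cyclin, measured 0, 3.29, 0.544, 0 and 0 CPM. Ccnb2, the other B-type cyclin listed, measured 0, 4.39, 0.544, 0 and 1.59 CPM. Their kinase Cdk1 measured 0, 4.39, 4.35, 0 and 0.531 CPM. Healthy 2 was the highest of the 5 libraries for each, and HCC 1 was level with it for Cdk1. The 0 of healthy 1 allows up to 3.58 CPM, more than the 3.29 CPM of Ccnb1 in healthy 2. Of the end words of Ccnb1 38.9% occur in other genes, so its level is uncertain. Plk1, the kinase of mitotic entry and spindle assembly, measured 0, 7.14, 1.09, 0 and 0 CPM. Ccna2, cyclin A of S and G2 phase, measured 0, 9.33, 1.09, 5.24 and 0 CPM. Of the end words of Plk1 12.6% occur in another gene, and Exosc9 lies over the end of Ccna2 on the opposite strand. Healthy 2 held the highest value for 9 of the 15 mitosis genes and healthy 1 was at 0 for 12. Over the whole table, too, healthy 1 had the fewest genes above 0 (10861) and healthy 2 the most (13229). The shares of all genes highest in healthy 2 or at 0 in healthy 1 alone were not computed, so these counts are no trait of mitosis genes.

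The highest value of Top2a and of Ube2c was in an HCC library. Top2a, the topoisomerase that untangles chromosomes, measured 0, 4.39, 2.72, 1.75 and 13.3 CPM, with HCC 3 above the rest. Ube2c, an enzyme that marks mitotic proteins for breakdown, measured 0, 1.10, 7.07, 6.40 and 0 CPM, so HCC 3 was at 0 with healthy 1. Its log2 difference was 1.43 with a 95% interval of -1.87 to 4.73, and 0.90 without healthy 1. Tnnc2 lies over its end on the opposite strand, and 14.6% of its end words occur elsewhere. Mki67, the gene of the proliferation marker Ki-67, measured 0, 3.84, 2.18, 0 and 3.72 CPM, highest in healthy 2 and with groups that overlapped. Nusap1 and Kif11 of the spindle and the checkpoint kinase Bub1 stayed at or below 1.75 CPM in every library, and Cenpf, a kinetochore protein, was listed at 0 in all 5. Of the end words of Cenpf 14.8% occur in other genes.

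The ratio of replication to mitosis levels was highest in a healthy library and lowest in the other. It was 16.9 in healthy 1, 4.99 in healthy 2 and 9.21, 8.19 and 8.16 in the HCC libraries. Mitosis genes made up 5.58% of both sums in healthy 1 (95% exact Clopper-Pearson interval 2.67 to 9.87), 16.7% in healthy 2 (14.7 to 18.9), and 9.79% (8.18 to 11.6), 10.9% (9.37 to 12.6) and 10.9% (8.41 to 13.7) in the HCC libraries. The 3 HCC shares overlapped in their intervals, and the healthy 2 share lay above all of them. A share of this kind does not depend on the factor applied to a library. No test of the ratio was made, since the members were a chosen list and healthy libraries numbered 2. The high share of healthy 2 was not seen in the wider lists of these processes. Other mitosis and other replication genes summed to 474.8 and 699.3 CPM in healthy 2 and to 366.2 and 542.5 CPM in HCC 3, nearly the same share. Healthy 1, at 196.9 and 470.7 CPM, had the lowest share there too.

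**Figure D4:**
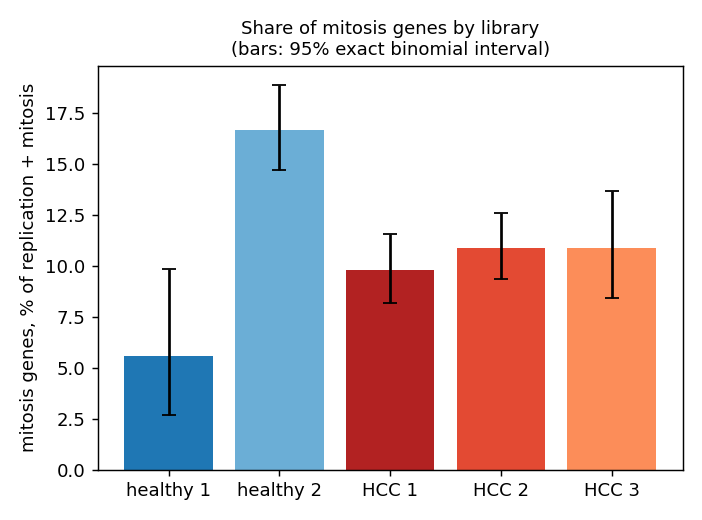
Mitosis genes as a percent of the summed replication and mitosis level in each library, with 95% exact binomial intervals for counting error. Healthy 2 lies highest at 16.7%, healthy 1 lowest at 5.58%, and the HCC libraries between 9.79 and 10.9%.

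Promoter sequences, which the list did not use, were searched for elements known from cell cycle genes, as a description with no test. RefSeq (GRCm38.p6) gave windows from 250 bases before to 50 after the start for 30 of the 35 members. E2F motifs (TTCCCGC, then TTCGCGC, also TTGCCGC, and TTGGCGC, on either strand; matches may overlap) occurred in 6 of 10 replication genes and 3 of 13 mitosis genes (23.1%), against 10.9% of 27025 genes. The elements TTTGAA or TTTAAA, known as CHR, occurred in 11 of 13 mitosis genes (84.6%) and 4 of 10 replication genes (40.0%), against 30.6% of all. A CCAAT box occurred at like shares in both, in 8 of 10 replication genes (80.0%) and 11 of 13 mitosis genes (84.6%), against 41.1% of all. A CHR together with a CCAAT box occurred in 10 of 13 mitosis genes (76.9%) and 3 of 10 replication genes (30.0%), against 13.4%. Of the 5 G1 genes with a window, 1 held an E2F motif, 1 a CHR and 3 a CCAAT box. Of the 2 tubulin and stathmin genes with one, 1 held an E2F motif, 1 a CCAAT box and 0 a CHR. The 250 bases before the start are printed for Mcm6, as a replication gene with E2F motifs, for Ccnb2, as a mitosis gene with CHR and CCAAT, and for Ccnd3, a G1 gene, at the second of its RefSeq starts. Capitals mark these motifs; a CCAAT box on the other strand reads ATTGG.
Mcm6 chr1:128359706-128359955, minus strand: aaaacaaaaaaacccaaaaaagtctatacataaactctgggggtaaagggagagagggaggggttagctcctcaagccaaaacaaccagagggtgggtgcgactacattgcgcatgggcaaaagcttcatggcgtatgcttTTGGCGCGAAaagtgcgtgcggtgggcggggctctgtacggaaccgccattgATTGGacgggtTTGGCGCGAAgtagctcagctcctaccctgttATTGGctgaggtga
Ccnb2 chr9:70421555-70421804, minus strand: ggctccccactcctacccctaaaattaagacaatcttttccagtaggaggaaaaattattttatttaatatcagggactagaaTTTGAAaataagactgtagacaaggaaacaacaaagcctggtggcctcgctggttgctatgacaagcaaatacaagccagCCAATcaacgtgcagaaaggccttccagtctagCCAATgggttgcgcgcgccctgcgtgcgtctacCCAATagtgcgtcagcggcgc
Ccnd3 chr17:47593217-47593466, plus strand: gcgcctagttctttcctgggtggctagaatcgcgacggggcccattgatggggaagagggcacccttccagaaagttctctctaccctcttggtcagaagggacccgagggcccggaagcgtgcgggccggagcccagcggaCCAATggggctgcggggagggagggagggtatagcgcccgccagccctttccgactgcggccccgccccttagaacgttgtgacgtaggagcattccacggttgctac
Mcm6 has the E2F motif on both strands at overlapping places, and Ccnb2 has 3 CCAAT boxes. The window at the first start of Ccnd3 holds none of these letters, and the printed one holds 1 CCAAT box. A match describes the letters only.

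Genes of G1 control summed to 1414, 1666, 1727, 1702 and 1911 CPM, or 1540 ± 179 (SD, n = 2) in healthy and 1780 ± 114 (SD, n = 3) in HCC libraries. Every HCC sum was above both healthy sums; the log2 ratio of means was 0.21. With scaling by median ratios it was 0.06 and the sums overlapped, with HCC 2 below both healthy libraries. Without healthy 1 it was 0.09. Ccnd2 and Ccnd3, the D-type cyclins of lymphocytes, made up most of the sum. Ccnd2 measured 778, 857, 815, 879 and 890.1 CPM, with overlap and a log2 difference of 0.08 (95% interval -0.61 to 0.76), or 0.01 without healthy 1. Gm43126 lies over the end of Ccnd2 on the opposite strand. Ccnd3 (ENSMUSG00000034165, chr17:47505051-47599691, plus strand) measured 545, 715, 812, 766 and 952 CPM. All 3 HCC libraries of Ccnd3 were above both healthy ones, with either scaling, and limma gave 0.43 (SE 0.33, adjusted p 0.9401), and 0.23 without healthy 1. Of its end words 14.2% occur elsewhere, with a pseudogene of its own among the matches, and Bysl lies over its end on the opposite strand.

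Groups were separated upward in 3 members, Aurkb, Ccnd3 and Tubb5, beside 12.9% of tested genes, and downward in Rrm1 alone. With scaling by median ratios they were Aurkb and Ccnd3 upward, beside 11.2% of tested genes, and Cdk4 downward, beside 7.89%. With library totals the share among the members tested, 2 of 22 upward, was not above its background of 12.9%.

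The cyclin-dependent kinases differed in which library was low. Cdk2, the kinase of S phase entry, measured 27.4, 24.2, 24.5, 3.49 and 14.9 CPM. HCC 2 was the low value, and the log2 difference of -1.13 (SE 0.73, limma adjusted p 0.9401) was -0.41 without it and -1.04 without healthy 1. Cdk4 measured 20.2, 31.3, 22.3, 20.4 and 15.4 CPM, and Cdk6 measured 5.84, 1.65, 6.53, 10.5 and 5.31 CPM, both with overlap. Tspan31 lies over the end of Cdk4 on the opposite strand, and 10.5% of the end words of Cdk6 occur in other genes. Cdkn1b, the inhibitor p27 that holds resting cells out of the cycle, measured 36.9, 37.3, 45.7, 21.5 and 33.4 CPM, with HCC libraries on both sides of the healthy ones.

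The 3 tubulin and stathmin genes summed to 687.8, 1418, 1105, 1131 and 1016 CPM, with healthy libraries again the lowest and the highest. Tuba1b, an alpha-tubulin of microtubules, measured 423, 1087, 713, 792 and 630.0 CPM. Stmn1, which destabilises microtubules, measured 18.0, 68.1, 26.7, 44.8 and 51.0 CPM. In both, the HCC values lay between the healthy values. Of their end words 40.4% and 46.2% occur in other genes, so their levels are uncertain. Tubb5 (ENSMUSG00000001525, chr17:35833921-35838306, minus strand), a beta-tubulin, measured 247, 263, 365, 294 and 335 CPM, with all HCC libraries above both healthy ones and a limma log2 difference of 0.37 (SE 0.33, adjusted p 0.9401), or 0.33 without healthy 1. With scaling by median ratios the Tubb5 groups overlapped.

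**Figure D5:**
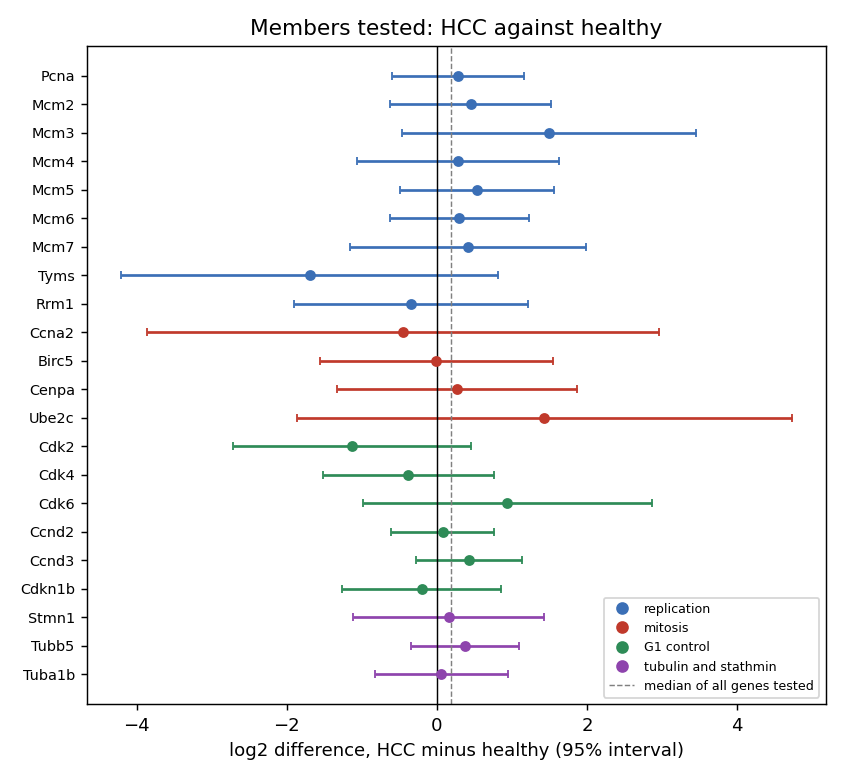
Log2 difference HCC minus healthy with its 95% interval for the 22 members tested by limma. All intervals include 0, and the smallest adjusted p is 0.9401.

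Among 160 other genes of the same processes, 65 were tested and limma called 0, with 3 higher and 1 lower at an unadjusted p under 0.05 (6.15%, beside 4.31% of all genes). All HCC libraries were above both healthy ones in 9 of the 65 and below in 4, beside 12.9% and 5.37% of all tested genes, and the genes named below for a small p were picked from these same values. Of the 27 other replication genes tested, Orc2, a subunit of the origin recognition complex, was the 1 at that level and measured 13.0, 21.4, 3.27, 5.24 and 3.19 CPM, below both healthy libraries in every HCC library (log2 -1.88, SE 0.75, limma adjusted p 0.9401; -2.22 without healthy 1). Pole4 and Rpa2, the most abundant, gave -0.04 and -0.10, and -0.09 and -0.52 without healthy 1. Of 13 other mitosis genes, Incenp, the scaffold of the complex that holds Birc5 and Aurkb, measured 0, 11.5, 12.5, 24.4 and 18.6 CPM (log2 2.42, SE 0.97, limma adjusted p 0.9401), and the difference was 0.59 without healthy 1. Healthy 2 was within 1 CPM of HCC 1, and healthy 1 was at 0. Bub3 and Pttg1 gave 0.39 and 0.17, and -0.27 and -0.30 without healthy 1. Of 19 other cell cycle control genes, Rbl1, the pocket protein p107, measured 0, 7.68, 22.9, 14.0 and 13.3 CPM, and Btg2, an antiproliferative factor, measured 8.54, 29.1, 49.0, 46.6 and 34.5 CPM. Both had all HCC libraries above both healthy ones, with log2 differences of 2.55 and 1.37 and a limma adjusted p of 0.9401 each. Without healthy 1 these differences were 0.99 and 0.54. Of the 6 other tubulins, Tuba4a and Tuba1c gave -0.22 and 0.42, and -0.09 and 0.06 without healthy 1.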

How the data were processed

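RNA of sorted liver iNKT cells was sequenced from transcript ends with a QuantSeq kit for Ion Torrent, so values were not divided by gene length. Per the submitters' processing notes the build was mm10, and the tools named, without role or version, were HISAT2, Bowtie2, bcl2fastq, limma, edgeR, DESeq2 and DESeq. How reads were assigned to genes, and with which strand, is not given in the sources used here. The deposited tables hold 1 score per gene and library: whole numbers that look like read counts multiplied by 1 factor per library and rounded, from gaps in the values of healthy 1 and HCC 3 and regular steps in the number of genes per value in the other tables, with median-of-ratios factors of 1.024 to 1.035 across tables. No source states this step; it was inferred from the values, and the factor of each library gave its estimated reads. A test on raw counts had been planned and was not made. In its place log2(CPM + 1), with CPM relative to the table total, was fitted with limma 3.58.1 in R 4.3.3 (moderated, with a trend) for genes with at least 5 CPM in 2 libraries, and adjusted by Benjamini and Hochberg with a threshold of 0.05. That model, its pseudocount and its filter were chosen after the scaling of the values was seen. The fitted differences are differences of mean log2 values. The pseudocount shrinks them for low genes, but 1 low library can make them larger than the ratio of means. The log2 difference was 1.49 for Mcm3 and 0.28 for Mcm4, where the ratios of mean CPM, not on a log scale, were 1.39 and 0.975. The script was tested on simulated data.

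Members and gene lists were chosen with earlier results of these data known. Named genes are all members and, of each wider list with none called, the 2 with the highest mean level and the 2 with the smallest unadjusted p. Of these Pold3, Smc4, Rbbp4, Btg1 and Tubb2a are given in the closing section. Symbols and positions come by gene ID from GENCODE M21. Libraries are described as separate mice, although a number common to the table names of HCC 2 and HCC 3 leaves it possible that 1 mouse gave both. Replicate numbers shared by the groups belong to different mice and were not used as pairs in the main fit. Intervals use estimated reads, which carry no molecular identifiers, and cover counting error only. Alternatives were other scaling, pseudocounts and filters, limma-voom on estimated reads, library weights, a replicate block, HCC 2 and HCC 3 summed, and each library left out.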

Additional observations from a re-analysis of the deposited data

How the results depend on the processing

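limma called 0 genes and 0 members with scaling by median ratios, with voom on estimated reads and with library weights. It also called 0 with pseudocounts of 0.5 and 5 CPM and with HCC 2 and HCC 3 summed. The weights, the pseudocounts and the scaling of sums were added after the data were seen. The use of limma, and so of voom on estimated reads, was also chosen after the scaling of the values was seen. Without the filter it called 2 genes higher. Leaving out each library gave 0 to 565 genes higher, 0 to 80 lower, 0 to 1 members and 0 to 3 wider genes (Incenp, Rbl1 and Btg2), with the highest values all without healthy 2. Log2 ratios of summed levels ranged over the libraries left out from -0.14 to 0.89 for replication, -0.92 to 1.88 for mitosis and -0.39 to 0.66 for tubulin and stathmin, with the lowest values without healthy 1 and the highest without healthy 2. For G1 control the ratio was 0.06 with median ratios and 0.35 without its most abundant member. Members with all HCC libraries above healthy numbered 5 with HCC 2 and HCC 3 summed and 4 to 17 over the libraries left out. Those below numbered 1 to 16. The 17 came without healthy 2 and the 16 without healthy 1, where only 1 healthy library had to lie outside the HCC values. Shares of all tested genes were not computed for these settings, so these counts have no background to be read against. Without healthy 1, 8 of 22 tested members changed the sign of their fitted difference. The median difference over all tested genes moved as well, from 0.19 to -0.04 without healthy 1 and to 0.37 without healthy 2. The share of all genes that changed sign was not computed, so these turns are no trait of the members. The cause was not tested. With the replicate number as a block, limma called 3 genes higher and 0 members. Same-numbered deviations correlated at 0.00 and 0.12. The deviations of 2 healthy libraries mirror each other, so these values cannot show whether the numbers pair libraries. TMM scaling, the DESeq2 Wald test and the edgeR test were not run. The deposited values do not look like raw counts, and limma-voom was the only count method run on the estimated reads. Mitosis genes rest on 10 to 203 reads a library, and 2 healthy libraries leave the healthy spread poorly known.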

Other observations

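Some genes named by the rule for the wider lists lie outside the comparisons above. Pold3, a subunit of DNA polymerase delta, measured 0, 2.74, 5.44, 9.31 and 5.84 CPM in healthy 1, healthy 2, HCC 1, HCC 2 and HCC 3. Smc4, a condensin subunit that compacts chromosomes for mitosis, measured 0, 4.39, 5.44, 12.2 and 9.02 CPM. In both genes every HCC library was above both healthy ones, with limma log2 differences of 1.99 and 2.03 and an adjusted p of 0.9401 each. Without healthy 1 these were 1.04 and 0.82. Both were picked for a small p, and the same order of groups held in 12.9% of all tested genes and 9 of the 65 wider genes tested. Tubb2a, a beta-tubulin, measured 0, 2.74, 5.99, 6.40 and 3.72 CPM, with the same order of groups. Rbbp4, a chromatin protein that also belongs to the complex that represses cell cycle genes at rest, measured 164, 316, 263, 317 and 304 CPM, and Btg1, an antiproliferative factor, measured 189.7, 436, 412, 299.7 and 184 CPM. Both overlapped between groups. Foxm1, the transcription factor of mitosis genes, and Ccnd1 were listed at 0 in all 5 libraries, as were E2f7 and E2f8; these 4 genes were chosen after their values were seen.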
